A study of Drosophila melanogaster with 3 samples.

Results

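Of 10 genes of the CCHamide, insulin-like, adipokinetic hormone and neuropeptide F systems of Drosophila melanogaster, 2 were measured here in kep1 mutant and w1118 males, CCHa2 and Ilp2. The CCHa2 transcript was 3.02-fold higher in the mutant, and that of Ilp2 stood at a mean log2 ratio of 0.08 ± 0.11 (SD, n = 3 arrays). The genes were picked by the CG number in the name column of the array tables: CCHa1, CCHa2, CCHa2-R, Akh, Ilp2, Ilp3, Ilp5, Ilp6, NPF and sNPF. CCHa2 (CG14375, clone RE10132, chromosome 3R) and Ilp2 (CG8167, clone GH11579, chromosome 3L) had 1 probe each, printed as 2 spots per array, and both passed the filter on dim probes. That filter was mild, as 11733 of 11744 probes were tested. No probe carried the CG number of the other 8 genes, so they were not analysed here. The array gave 9147 genes with a tested probe in all.

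CCHamide-2 is a peptide hormone of gut endocrine cells and fat body that reports nutrient state, and in larvae it acts through the receptor CCHa2-R on the brain neurons that make insulin-like peptides. Ilp2 is made by those neurons in the brain and signals through the insulin receptor to growth and sugar metabolism. Adipokinetic hormone from the corpora cardiaca acts much like glucagon, releasing sugar and fat from stores, while NPF and sNPF are brain and gut peptides that act on feeding.

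The study set RNA of males homozygous for a kep1 mutation against RNA of w1118 wild-type males. The Kep1 protein binds RNA and belongs to the STAR family, and w1118 is a common laboratory strain. The design text gives heads of flies aged 3 to 4 days and 3 independent RNA samples, the labels name only male RNA, and neither gives the allele, the rearing or how many flies made a sample. Each of 3 arrays of cDNA clones held 1 mutant RNA in channel 2 (Cy5) and 1 wild-type RNA in channel 1 (Cy3), and the dyes were not swapped. A dye effect of a single probe and the effect of genotype therefore cannot be told apart in any value below. Arrays are numbered in the order of their records.

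The log2 ratio of mutant over wild type was taken per array after background correction and normalization, and limma tested its mean over 3 arrays against 0 for 11733 probes. The threshold was a Benjamini-Hochberg adjusted p of 0.05, which 17 probes passed. Median probe intensities ran from 226.5 to 273.6 in mutant channels and from 248.6 to 306.7 in wild-type channels. Blank spots, which hold no DNA, had 95th percentiles of 128.6 to 310.2 in mutant channels and 113.2 to 444.5 in wild-type channels, so many dim probes lay within the range of blank spots. The kep1 probe (qkr58E-3, CG3584) had ratios of -1.59, -1.35 and -2.13, lower in the mutant on every array (limma adjusted p = 0.0726). Neuron markers (5 of 5 measured, median ratio 0.07) and photoreceptor markers (8 of 8, median 0.15) exceeded the blank-spot level on 3 arrays in both channels, except brp, which did so on 1 array in each, and both channels also held signal from genes of the midgut and of the testis and accessory gland. Pearson correlations of the ratios across probes, which are not independent replicates, were 0.41 for arrays 1 and 2, 0.691 for arrays 1 and 3 and 0.476 for arrays 2 and 3.

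The spots of CCHa2 were bright in both genotypes. Its mean intensity over the 2 spots was 2904, 6202 and 2794 in the mutant, against 849.2, 2286 and 1090 in the wild type, on arrays 1, 2 and 3. Before normalization the mutant lay above the wild type on each array, in ratios of 3.42, 2.71 and 2.56. Across arrays the 2 ranges did not meet, although the wild-type value of array 2 came near the lowest mutant value. The share of all genes with ranges apart was not counted, so nothing is read from this. All 6 channel values were above the blank-spot level, the 95th percentile in their own channel, by 9.36, 48.2 and 9.13 times in the mutant and by 2.47, 20.2 and 2.45 times in the wild type.

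**Figure D1:**
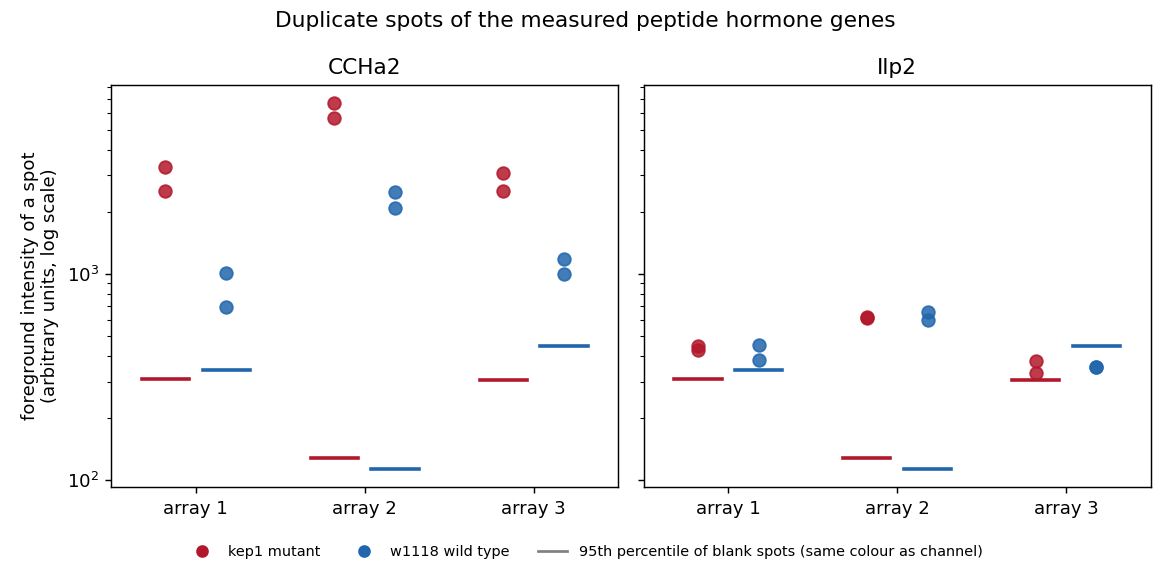
Foreground intensity of each of the 2 spots of CCHa2 and of Ilp2 (arbitrary units, log scale) on 3 arrays, in the kep1 mutant and in w1118 wild type; short lines mark the 95th percentile of the blank spots of that channel. The mutant spots of CCHa2 lie above the wild-type spots on all 3 arrays, while the spots of Ilp2 lie together and, on arrays 1 and 3, near the level of blank spots.

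After normalization the log2 ratios of CCHa2 were 1.73, 1.63 and 1.43, or 3.31-fold, 3.09-fold and 2.69-fold. Their mean was 1.59 ± 0.15 (SD, n = 3). The duplicate spots, which share their RNA and their array, differed by 0.28, 0.01 and 0.02 on the log2 scale, well under the difference between genotypes. CCHa2 was the 11th, 15th and 11th probe from the highest ratio among 11731, 11733 and 11732 probes of the 3 arrays. Ratios of this same comparison had a part in choosing these genes, so these values are a description and carry no test. For that reason nothing is read from the count of 1 of 2 genes past the threshold of the fit over all probes, where the background is 0.145% of probes in either direction, 0.0682% higher and 0.0767% lower. In RNA of whole tissue, fewer cells of a type and less RNA per cell cannot be told apart, nor can more of either.

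Few probes of like brightness had such a ratio. Among 624 probes within 0.5 of the mean log2 intensity of CCHa2 (11.03), a window chosen after its values were seen, the median ratio was -0.03 and the quartiles were -0.20 and 0.11. At or above the ratio of CCHa2 lay 6 of them, CCHa2 included, and 5 lay as far below 0. By mean ratio CCHa2 was 6th of 9147 genes. The 5 genes above it were Lsp2 (2.72 ± 0.97), CG9360 (1.99 ± 0.39), sals (1.80 ± 0.41), Kmn1 (1.75 ± 0.47) and Obp99b (1.62 ± 0.55), each with a wider spread between arrays than CCHa2 and none past the threshold in limma, with adjusted p-values of 0.0619 to 0.0959.

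The 5 genes whose 3 array ratios were most like those of CCHa2, by Euclidean distance over 3 arrays among 9144 other genes, were sals (distance 0.52), Kmn1 (0.67), Obp99b (0.73), CG9360 (0.78) and Acat1 (0.92). sals acts on actin filaments in muscle, Kmn1 encodes a kinetochore protein, Obp99b an odorant-binding protein and Acat1 an acetyl-CoA acetyltransferase. Acat1 was the steadiest, with 1.15, 1.03 and 1.04, and rose in limma (1.07 ± 0.07, adjusted p = 0.0303). The likeness is that of 1 probe a gene: on their other, dimmer probes sals had a mean ratio of 0.13 and Obp99b one of 0.94.

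The neighbours of CCHa2 on the chromosome had ratios nearer 0. The 5 measured genes on either side along chromosome 3R, a window also chosen after values were seen, had mean ratios from -0.32 to 0.71 with a median of 0.02. None of these 10 passed the threshold in limma (lowest adjusted p 0.182), where the background is 0.131% of genes. The highest was yellow-e, of the yellow gene family, at 1.21, 0.51 and 0.42.

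Ilp2 was dim and close to even. Its mean spot intensity was 436.5, 615.5 and 355.9 in the mutant, against 416.9, 625.7 and 353.8 in the wild type. The groups overlapped, and the order of the genotypes before normalization was reversed on array 2. Its normalized log2 ratios were -0.02, 0.20 and 0.06, a mean of 0.08 ± 0.11 (SD, n = 3), which placed it 2004th of 9147 genes. The duplicate spots differed by 0.30, 0.09 and 0.17, as much as the arrays did. Mutant values exceeded the blank-spot level on 3 of 3 arrays and wild-type values on 2 of 3, by 1.41 and 1.16 times in the mutant on arrays 1 and 3, which limits what difference could be seen. With the first of its duplicate spots alone its mean was -0.02.

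A further 3 genes of insulin-like peptides and their binding proteins were measured, and none passed the threshold in limma. Ilp4, an insulin-like peptide of the embryonic midgut, stood at -0.04 ± 0.09, with all 6 channel values under the blank-spot level. ImpL2, a secreted protein that binds insulin-like peptides, had ratios of 0.81, -0.06 and 0.19, so that array 1 alone was high. Sdr, a secreted decoy of the insulin receptor, had 0.12, 0.33 and 0.43, one sign on all arrays (0.29 ± 0.16, limma adjusted p = 0.211).

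Of the receptors of these peptide systems that were measured, all had mean ratios near 0, and all but InR were dim. InR, the insulin receptor, had intensities of 1035, 842.9 and 223.1 in the mutant, against 763.7, 869.4 and 313.8 in the wild type. Its ratios of 0.24, 0.17 and -0.22 crossed 0 (0.06 ± 0.25, limma adjusted p = 0.840). Both values of array 3, which gave the negative ratio, lay under the blank-spot level of their channel. AkhR, the receptor of adipokinetic hormone, stood at 0.06 ± 0.08 (limma adjusted p = 0.701), NPFR at -0.03 ± 0.01 (0.830) and sNPF-R at 0.03 ± 0.05 (0.857). These last 3 receptors were dim, above the blank-spot level on at most 1 of 3 arrays in either channel. Over the processing alternatives AkhR ran from 0.02 to 0.20, NPFR from -0.19 to -0.01 and sNPF-R from -0.03 to 0.16. A difference between genotypes in them was therefore hard to see. The signs of InR and sNPF-R each turned under 2 processing alternatives, so no direction is given for them. Probes of the CCHamide receptors were not found by CG number, and the receiving side of CCHamide-2 was not analysed here.

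CCHa2 had the highest ratio of the peptide genes and receptors set side by side. It was chosen with ratios of this comparison known, so this place is a description and carries no test. Besides CCHa2 and Ilp2, 11 genes of insulin-like and feeding or satiety peptides had mean ratios from -0.66 to 0.09 with a median of 0.04. The 17 receptors ranged from -0.09 to 0.11, with a median of 0.00054. No peptide or receptor gene among these passed in limma. Only 3 of the 11 peptides and 0 of the 17 receptors exceeded the blank-spot level on all 3 arrays in a channel, and 3 peptides and 10 receptors did so on no array, so a change in the dim ones was hard to see.

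**Figure D2:**
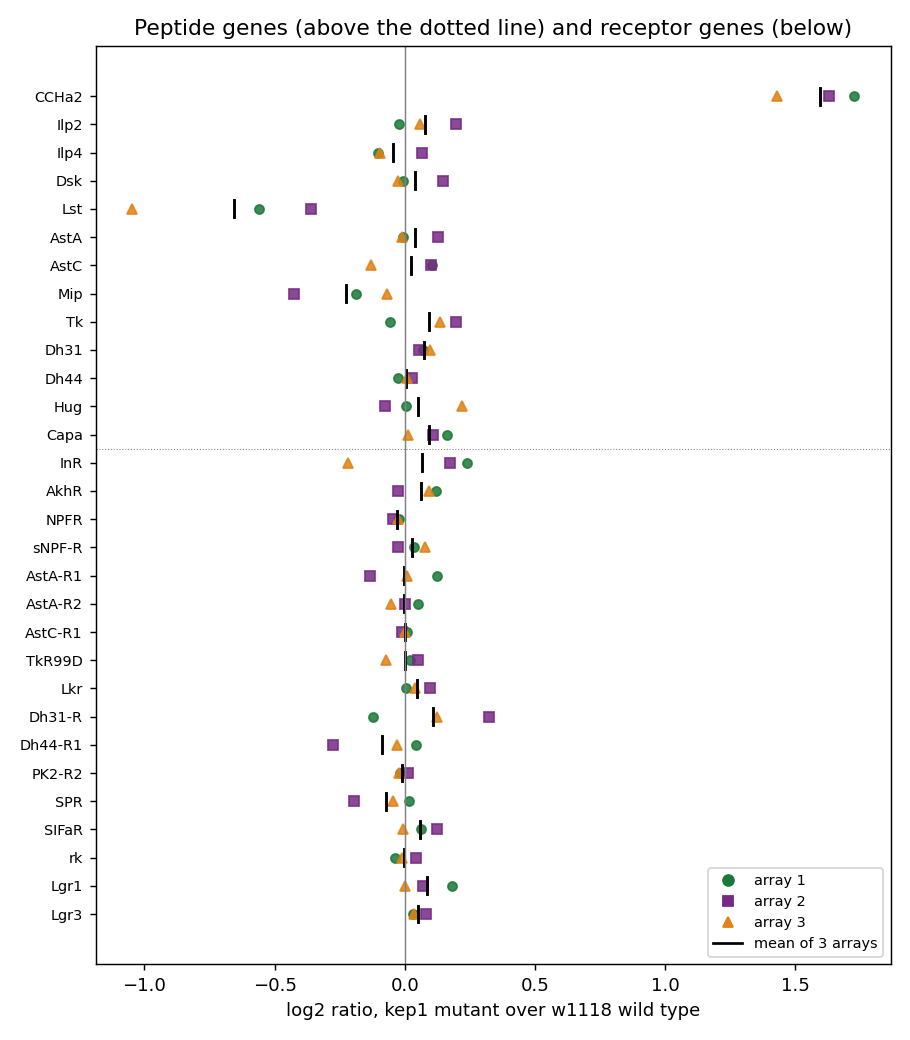
Log2 ratio of kep1 mutant over w1118 wild type on each of 3 arrays (symbols) and their mean (black bars) for 13 peptide genes, above the dotted line, and 17 receptor genes, below it. CCHa2 lies between 1.43 and 1.73, while the means of the other genes lie between -0.66 (Lst) and 0.11.

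Among the 21 feeding and satiety genes of that comparison (of 34 listed), limostatin was the one with a sizeable ratio. Lst encodes a peptide of the corpora cardiaca that suppresses insulin release on fasting. Its intensity was 581.3, 742.2 and 503.7 in the mutant, against 768.9, 1137 and 1063 in the wild type, lower in the mutant on each array. The ratios were -0.56, -0.36 and -1.05 (-0.66 ± 0.35), all below 0, as were those of 21.5% of all genes. Lst did not pass the threshold (limma adjusted p = 0.161). The other genes of one sign with the next largest ratios were Mip (-0.23 ± 0.18), a satiety peptide, Capa (0.09 ± 0.08), whose peptides act on the renal tubules, and Dh31 (0.07 ± 0.02), a gut and brain peptide. The other measured gene of the corpora cardiaca list, gl, stood at 0.08 ± 0.15. How much RNA of the corpora cardiaca each sample held was not tested.

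Downstream of the insulin receptor no gene passed the threshold. Of 22 measured genes of insulin and TOR signalling (25 listed), the median was -0.05. At an unadjusted p under 0.05, 0 were higher and 1 was lower, beside 5.66% higher and 10% lower over all genes. Thor, the translation repressor that foxo switches on when insulin is low, had -0.07, -0.77 and -0.23, mostly from array 2 (-0.35 ± 0.37, limma adjusted p = 0.382). The ribosomal protein RpS6, a target of S6 kinase, had -0.19, -0.26 and -0.37 (-0.27 ± 0.09, limma adjusted p = 0.158). S6k stood at 0.14 ± 0.17 and the TOR activator Rheb at 0.10 ± 0.06.

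Genes of adipokinetic hormone signalling and of fat and glycogen release gave 17 measured of 20 listed, with 0 past the threshold in limma and a median of 0.03. At an unadjusted p under 0.05, 1 was higher and 2 were lower, beside the same 5.66% and 10% over all genes. Tps1, which makes the blood sugar trehalose, had -0.13, -0.88 and -0.38 (-0.46 ± 0.39, limma adjusted p = 0.292) and -0.12 on its other probe. sima, the hypoxia-inducible factor alpha, was even across arrays with 0.25, 0.33 and 0.30 (0.30 ± 0.04, limma adjusted p = 0.112). The fatty acid desaturase gene Desat1 stood at -0.24 ± 0.08 and the triglyceride lipase gene bmm at 0.18 ± 0.12.

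Fat-body and cytokine signals to the insulin cells gave 12 measured genes of 17 listed, with 0 past the threshold in limma and a median of 0.03. At an unadjusted p under 0.05, 2 were higher and 0 lower, where all genes gave 5.66% and 10%. The largest ratio of the list was that of fit, a fat-body satiety signal that is more abundant in females. Its intensity was 258.6, 1748 and 590.5 in the mutant, against 171.9, 197.0 and 132.8 in the wild type. The mutant lay above the wild type on each array, but by ratios as unlike as 0.31, 2.93 and 1.17 (1.47 ± 1.33, limma adjusted p = 0.304). Mutant values exceeded the blank-spot level on 2 of 3 arrays and wild-type values on 1 of 3, and on array 1 neither did. The size of these ratios is therefore uncertain. The female-enriched yolk protein genes had their highest ratios on the same array 2, with Yp1 at -2.54, 2.96 and -0.78 and Yp3 at 0.78, 2.39 and 0.64. Their part in the ratio of fit was not tested. The tumour necrosis factor receptors wgn and grnd stood at 0.29 ± 0.15 and 0.16 ± 0.10, and the Ilp8 receptor Lgr3 at 0.05 ± 0.03, with its sign turned by the use of the first duplicate spot alone.

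Genes of sugar and amino acid sensing had the widest range of mean ratios of the 9 lists. Of 26 measured (30 listed), 0 passed the threshold in limma, and the median was 0.0081. At an unadjusted p under 0.05, 5 were higher and 1 was lower, with 5.66% higher and 10% lower over all genes. CG6295, a predicted lipase gene, had intensities of 173.0, 436.3 and 124.8 in the mutant, against 470.7, 1566 and 725.2 in the wild type, with ratios of -0.95, -1.50 and -1.44 (-1.29 ± 0.30, limma adjusted p = 0.0726). Its mutant values exceeded the blank-spot level on 1 of 3 arrays, which limits how well the size of its ratio is known. CG6295 passed under 7 of the alternative settings, at -1.98 to -1.29. CG5966, another predicted lipase gene, had intensities of 1327, 312.1 and 1246 in the mutant, against 653.1, 225.1 and 721.0 in the wild type, and ratios of 0.89, 0.52 and 0.85 (0.75 ± 0.21, limma adjusted p = 0.0920). It passed under 6 of the alternatives, at 0.75 to 0.87, so both lipase genes stand at the edge of the threshold on opposite sides of 0. The lipase gene Lip4 stood at 0.43 ± 0.23 and Iml1, a subunit of the amino acid sensor complex GATOR1, at 0.42 ± 0.22.

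Peptide processing genes, which cut and amidate hormones such as CCHamide-2 and fill dense-core vesicles, gave 13 measured of 14 listed, with 0 past the threshold in limma and a median of 0.02. silver (svr), a carboxypeptidase that trims peptide precursors, had -0.76, -0.45 and -0.51 (-0.57 ± 0.16, limma adjusted p = 0.0959), but -0.02 on its other, dimmer probe. The prohormone convertase gene amon stood at 0.07 ± 0.02.

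Of 159 listed pathway genes, the 10 genes above included, 118 were measured, and of the 116 other than CCHa2 and Ilp2, 0 passed the threshold in limma. An unadjusted p under 0.05 was reached by 9 on the higher and 6 on the lower side, or 7.76% and 5.17%, against 5.66% and 10% of all 9147 genes. In either direction that was 12.9%, against 15.7% of all genes. The same sign on 3 arrays was seen for 40 of them, or 34.5%, against 39.3% of all genes. Their median ratio was 0.0044, against -0.01 over all genes, and 111 had a mean between -0.5 and 0.5, a band chosen after seeing the values. The share of all genes within this band was not counted, so nothing is read from the 111. Of the 116, 19 exceeded the blank-spot level on no array in either channel.

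**Figure D3:**
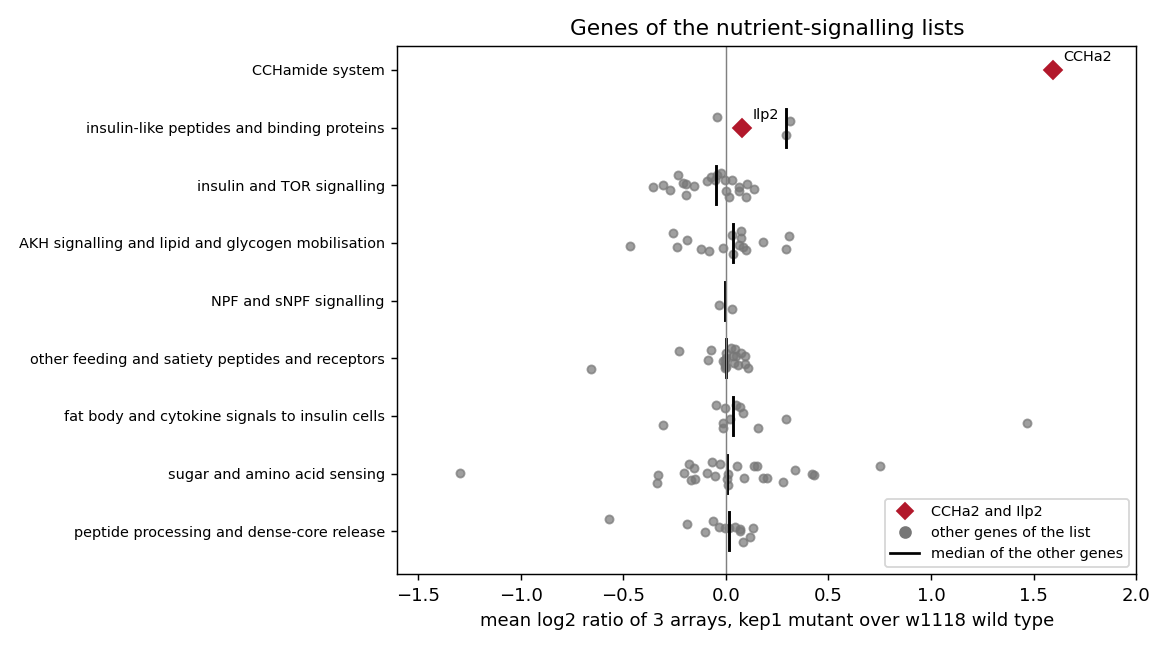
Mean log2 ratio of kep1 mutant over w1118 wild type for each measured gene of 9 lists of nutrient signalling (grey points, spread vertically for legibility), with the median of the other genes of each list (black bars) and CCHa2 and Ilp2 as red diamonds. All but 5 of the other 116 genes lie between -0.5 and 0.5, CCHa2 at 1.59 and fit at 1.47. The share of all genes within that band was not counted.

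Markers of the fat body and digestive genes of the midgut, 2 tissues known to make CCHamide-2, stood on opposite sides of 0. All marker lists were chosen with earlier results of these data known, so their counts are a description and carry no test. Fat body markers (8 of 9 measured) had a median of 0.44, and 0.64, 0.49 and 0.26 by array. None passed in limma, 5 were above 0 on all arrays (17.8% of all genes) and 0 below, and an unadjusted p under 0.05 was reached by 4 on the higher and 0 on the lower side, beside 5.66% and 10% of all genes. Their summed intensity was 17685, 17595 and 10585 in the mutant, against 6714, 12819 and 8769 in the wild type. The storage protein gene Lsp2 stood at 2.72 ± 0.97, the fat body protein gene Fbp2 at 0.96 ± 0.61 and the lipocalin gene NLaz at 0.45 ± 0.09. Wild-type values of Fbp2 exceeded the blank-spot level on 1 array, so the size of its ratio is uncertain. Of mixed sign were apolpp (0.99, 0.51 and -0.04), the brightest of the list, Apoltp (0.28, 0.16 and -0.20) and Lsp1gamma (0.16, -0.22 and 0.15). Summed over the list, the mutant was higher on each array, but not every gene was. On array 3 apolpp, the largest part of the sum, was lower in the mutant (5464 against 5775). Lsp2 was higher there (2046 against 464.6). The part of fat body RNA in the ratio of CCHa2 was not tested.

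Digestive genes of the midgut (5 of 9 measured) were all below 0 on all arrays (21.5% of all genes), with a median of -1.90. As this list too was chosen with earlier results known, the shares of all genes are given for scale alone. In limma 2 fell, where 0.131% of all genes passed the threshold in either direction. These were the amylase genes Amy-d (-2.02 ± 0.15, adjusted p = 0.0287) and Amy-p (-1.90 ± 0.27, adjusted p = 0.0351), near-identical copies whose probes can bind either transcript. The summed intensity of the list was 3298, 7714 and 2856 in the mutant, against 11100, 23998 and 13611 in the wild type, lower in the mutant on each array. The part of midgut RNA in the ratio of CCHa2 was not tested. The 12 enteroendocrine and neuroendocrine markers, all measured, had a median of 0.05 with 0 past the threshold in limma. Their summed intensity was 5433, 12083 and 10138 in the mutant, against 5876, 14107 and 9899 in the wild type. Testis and accessory gland markers (6 of 7) had a median of -0.92 with 0 past the threshold. Of them 5 were lower on all arrays (21.5% of all genes), among them Acp36DE (-1.43 ± 0.90), Mst57Da (-1.39 ± 0.82) and Mst98Ca (-1.24 ± 0.52). The remaining marker, dim and of mixed sign, stood at -0.09 ± 0.09.

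**Figure D4:**
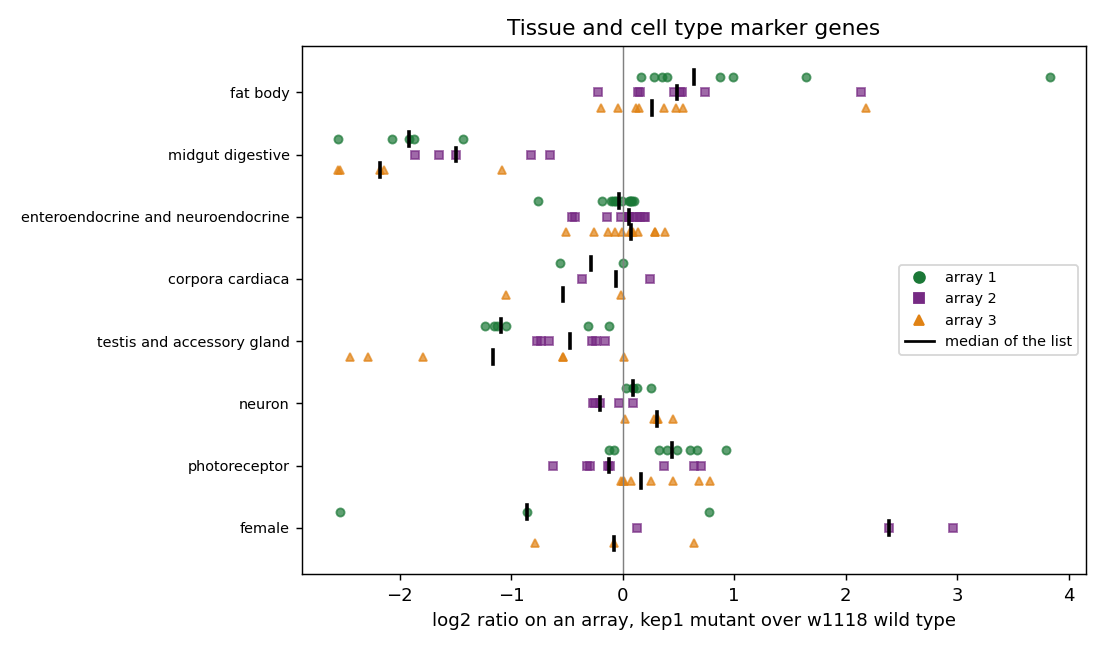
Log2 ratio of kep1 mutant over w1118 wild type for each measured marker gene (symbols, by array) and the list median on each array (black bars). Fat body medians lie at 0.64, 0.49 and 0.26, midgut medians below -1.4, enteroendocrine and neuroendocrine medians near 0, and the 3 female markers differ between arrays.

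The ratio of CCHa2 depended little on the processing. Over 15 alternatives its mean ran from 1.53 to 1.68, each within 1 SD of the arrays from the reported 1.59. Among these, the changes of filter and of variance model reuse the same ratios. They gave 1.59 by construction and say nothing on the steadiness of the mean. The first of the duplicate spots alone gave 1.55 and the second 1.64, and the deposited log2 values, which carry no background subtraction, gave 1.63. Its place past the threshold was less steady: it was lost after scale normalization between arrays (1.61), without array 1 (1.53) and without array 3 (1.68), settings under which 0 probes of the whole array passed in limma.

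**Figure D5:**
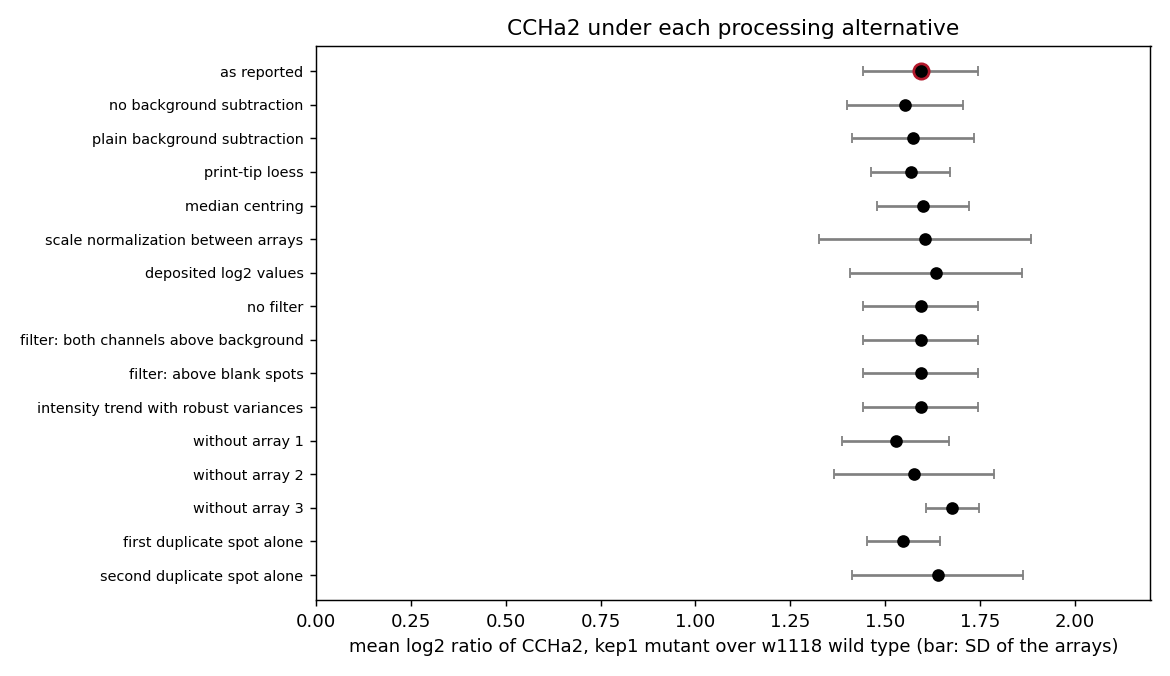
Mean log2 ratio of CCHa2, kep1 mutant over w1118 wild type, as reported (red ring) and under 15 alternatives of background correction, normalization, filter, variance model, arrays and spots; bars are the SD over the arrays used. All means lie between 1.53 and 1.68. Changes of filter and of variance model leave the mean as it is by construction.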

How the data were processed

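RNA of kep1 mutant and w1118 males was compared on 3 spotted cDNA arrays of 27648 spots. The deposited tables hold, per the file headers, a linear foreground and local background intensity for every spot in each channel, and the authors' values are not normalized. The deposited log2 values equal log2 of channel 2 over channel 1 foreground, tested on the files, with no centring. The image software and genome build were not given in the sources used here. Spots marked to be ignored (22, 76 and 26) were left out. Probes were named by CG number through a RefSeq gene table (10447 of 11744 probes, 537 through an older CG number), which served for naming, chromosomes and gene order alone.

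In limma 3.58.1 under R 4.3.3, background was corrected by normexp (offset 50), ratios were normalized by loess within each array with zero weight for control, blank and failed spots, and the duplicates averaged. Probes were kept where either channel stood 2 background SDs over local background on 2 or more of the 3 arrays. The mean log2 ratio was tested against 0 (two-sided, empirical Bayes, Benjamini-Hochberg over all probes). A gene was represented by its brightest probe. The p-values reflect the spread of 3 samples, whose number limits the precision.

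The genes described and all lists were chosen with earlier results of these data known. Genes named were the 10 genes and their receptors, kep1 and the 5 genes most like CCHa2. From each list those past the threshold were named, or else up to 4 (markers, 3) of one sign with the largest ratios. ImpL2, Ilp4, gl, Yp1, yellow-e, apolpp, Apoltp, Lsp1gamma and genes above CCHa2 were named after their values were seen. Alternatives were 14 fixed at the start and 2 added after seeing the data (each duplicate spot alone). The fit was tested on simulated data with changes put in after background correction. This version replaced a first simulation that passed through normexp, recovered fewer of the changes and distorted ratios by array; the reason was not settled, so the background correction is not covered by the test.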

Additional observations from a re-analysis of the deposited data

How the results depend on the processing

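The counts of probes past the threshold depended strongly on the processing, from 8 higher and 9 lower as reported. They were 116 and 318 with no background subtraction, 101 and 288 with plain subtraction, 121 and 302 with the deposited log2 values, 25 and 45 with median centring, and 0 and 0 with scale normalization between arrays. A filter on both channels gave 13 and 22, a filter on the blank spots 96 and 262, an intensity trend with robust variances 73 and 219, the first duplicate spot 19 and 29 and the second 13 and 27. Leaving out 1 array gave 0 to 16 higher and 0 to 84 lower, with 0 without array 1 or array 3. CCHa2 and Ilp2 gave 1 past the threshold, 0 with scale normalization and 0 to 1 with an array left out. In the fat-body and cytokine list 1 gene (fit) passed with no subtraction, plain subtraction or the deposited values, against 0 as reported. In the sugar and amino acid list, against 0 as reported, 3 passed with no subtraction and with the deposited values, 2 with plain subtraction, the blank-spot filter and the trend, 1 with median centring and with the first duplicate spot, and 0 to 1 with an array left out. In the peptide processing list 1 (svr) passed with the blank-spot filter. These were the genes CG6295, CG5966, fit, Iml1 and svr, and the cause was not tested. Of other values, 38 of single genes and 13 of list medians moved by more than the SD over arrays, against 623 and 114 that did not. The single-gene values that did not move include those under changes of filter and variance model, which cannot move them. Averaging the probes of a gene was done for list medians only, and no NPF or sNPF receptor remained under the blank-spot filter. The reported fit is itself paired, by the mutant and wild-type RNA of each array, and no further block was fitted. Dim signal limits the peptide and receptor genes most.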
